A study of Mus musculus with 9 samples.

Results

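The Zfp genes of mouse chromosome 7 were described in embryonic cortex. Samples were wild type (WT), Smarca1 knockout (Smarca1 KO) or double knockout (DKO) for the ISWI chromatin remodeller genes Smarca5 and Smarca1. Members were chosen by name and place: every protein-coding gene whose GENCODE M21 symbol is Zfp followed by a number and which lies on chromosome 7 of GRCm38, without Zfp36, whose product binds RNA. There were 88 such genes among the 35498 genes with transcripts in the files, and 275 further genes with a Zfp number lay on other chromosomes. No measured value entered the choice of a single member, but the set was proposed with earlier results of these libraries in view. Counts and medians over it are therefore descriptions, with no test over the set. The tests of single genes come from the fit across all genes.

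Most Zfp genes of this kind encode C2H2 proteins, in which each finger holds a zinc ion between cysteines and histidines and an array of fingers reads a stretch of DNA. Many carry a KRAB domain at the amino end, which recruits the corepressor TRIM28 and, through it, the histone methyltransferase SETDB1 and HP1 proteins. KRAB zinc finger genes lie in clusters that grew by tandem duplication, they evolve quickly, and many of the proteins silence transposable elements. The ISWI ATPases Smarca5 (SNF2H) and Smarca1 (SNF2L) slide and space nucleosomes.

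The 9 libraries were stranded mRNA libraries of whole cortical tissue of C57Bl/6 embryos at E13.5. DKO was labelled Smarca1 -/- with Cre +/- and is named in the series' design text as the double knockout of Smarca5 and Smarca1. Smarca1 KO was Smarca1 -/- with Cre -/-, and WT was Smarca1 +/+ with Cre -/-, with 3 libraries in each group. DKO and Smarca1 KO thus share the Smarca1 deletion, and DKO alone carries Cre, whose own effect cannot be told apart from the loss of Smarca5. The sources used here give neither the promoter that drives Cre, nor which exons it removes, nor the Smarca5 alleles of Smarca1 KO and WT. Whether the libraries of a group came from separate embryos is not stated in the labels, so the spread behind each p-value is that of these samples and may be technical.

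Counts assigned to genes lay between 30934788 and 46007718 per DKO library, between 27466225 and 37910823 per Smarca1 KO library and between 28982243 and 39423214 per WT library. Smarca5 RNA was at 84.4, 79.2 and 77.2 CPM (counts brought to the same library total by TMM scaling) in DKO, against 245.8, 243.1 and 212.2 CPM in Smarca1 KO cortex and 267.4, 270.7 and 262.0 CPM in WT. Smarca1 RNA was at 37.9 to 38.8 CPM in DKO, 35.3 to 43.8 CPM in Smarca1 KO cortex and 36.4 to 37.8 CPM in WT, so its level did not check the Smarca1 labels. None of the 6 cortex markers was at 0, and they summed to 1545 to 1753 CPM in DKO, 1677 to 2065 CPM in Smarca1 KO cortex and 1878.5 to 1961 CPM in WT. The 4 ventral interneuron markers summed to 681 to 838 CPM in DKO, 658 to 688 CPM in Smarca1 KO cortex and 596 to 676 CPM in WT. The 6 markers of meninges and mesenchyme summed to 627, 259 and 230.1 CPM in DKO, 573, 237 and 240.2 CPM in Smarca1 KO cortex and 468, 497 and 409 CPM in WT, so replicate 1 of DKO and of Smarca1 KO stood apart from their groups. Sums for blood were 133 to 315 CPM in DKO, 109.6 to 361 CPM in Smarca1 KO cortex and 361 to 505 CPM in WT. Those for endothelium were 83.0 to 118 CPM in DKO, 84.8 to 129.7 CPM in Smarca1 KO cortex and 97.4 to 106 CPM in WT. Those for microglia were 33.8 to 41.1 CPM in DKO, 26.3 to 32.2 CPM in Smarca1 KO cortex and 26.5 to 27.6 CPM in WT. The 4 Y-linked genes Ddx3y, Eif2s3y, Kdm5d and Uty summed to 238 to 247 CPM in DKO, 253 to 267 CPM in Smarca1 KO cortex and 258 to 266 CPM in WT, so DKO lay below both other groups.

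Most members were present at moderate levels in every group. In TPM, which is scaled by length and so can be compared between genes, 7 members averaged 50 or more over the 9 libraries, 47 lay between 10 and 50, 30 between 1 and 10, and 4 under 1. Zfp428, a gene with 1 finger match, was the highest, at 148 ± 9.32 TPM in DKO, 147 ± 4.31 TPM in Smarca1 KO and 139 ± 6.35 TPM in WT (SD, n = 3 each). Zfp146, whose protein is made almost wholly of fingers, followed at 107 ± 5.21 TPM in DKO, 105 ± 2.50 TPM in Smarca1 KO and 113 ± 1.62 TPM in WT. Zfp579 came next at 85.7 ± 8.07 TPM in DKO, 90.7 ± 12.1 TPM in Smarca1 KO and 91.8 ± 4.44 TPM in WT. The order of these 3 means was the same in all groups, and within a library the levels kept that order except for Zfp579 and Zfp146 in 1 Smarca1 KO library, where Zfp579 was at 104.6 TPM and Zfp146 at 103.7 TPM. The next neighbours, Zfp260 at 63.7 ± 0.657 TPM and Zfp444 at 63.6 ± 1.47 TPM in WT, did not differ beyond their spread. At the low end were Zfp296, a gene of pluripotent cells, at 0.504 ± 0.272 TPM in DKO, 0.788 ± 0.252 TPM in Smarca1 KO and 0.611 ± 0.139 TPM in WT, and the 3 members that failed the filter on low counts. These were Zfp541, a gene of meiotic germ cells, Zfp936 and Zfp819, with 0 to 17 counts per library. The other 85 members passed the filter and were tested.

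**Figure D1:**
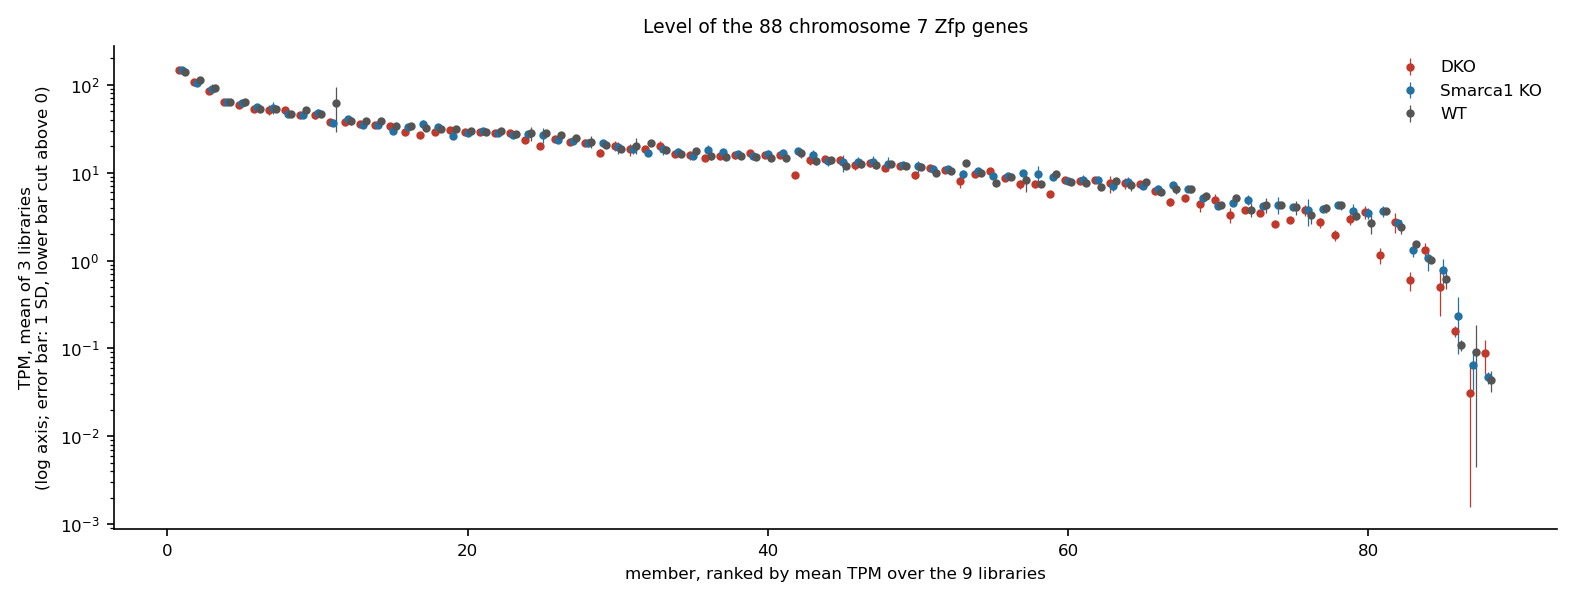
Mean TPM of each of the 88 members in DKO, Smarca1 KO and WT (log axis, bars 1 SD over 3 libraries), ranked by the mean over the 9 libraries. Zfp428 leads at 139 to 148 TPM, and 4 members average under 1 TPM. The wide bar at rank 11 is Zfp865, listed at 42.2, 44.4 and 100.1 TPM in the WT libraries.

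A pair of comparisons involved the DKO, and they share the DKO libraries. Against Smarca1 KO, 11 of the 85 members tested fell and 0 rose (12.9% called), where 4.39% of all 15773 genes tested were called, 1.73% as higher and 2.66% as lower. Calls were made in edgeR's quasi-likelihood test where p, adjusted over all genes by the Benjamini-Hochberg method, was under 0.05. The 11 were Zfp976, Zfp977, Zfp975, Zfp141, Zfp551, Zfp111, Zfp747, Zfp507, Zfp788, Zfp110 and Zfp606. Against WT, 16 members fell and 1 rose (20% called), where 12% of all genes were called, 5.61% as higher and 6.35% as lower. Of the first comparison's 11 genes, Zfp788 and Zfp110 were not called against WT. Those called against WT but not against Smarca1 KO were Zfp764, Zfp14, Zfp109, Zfp114, Zfp865, Zfp553 and Zfp329, which were lower, and Zfp524, which was higher. Between Smarca1 KO and WT no member was called. DESeq2's Wald test made each of the 28 DKO calls too. Against Smarca1 KO it also called Zfp114 as lower (adjusted p = 0.0377) and Zfp536 as higher (adjusted p = 0.0358). Against WT it also called Zfp110 (adjusted p = 0.0279) and Zfp788 (adjusted p = 0.0345) as lower. Over all genes it called 1135 and 2828 in these comparisons. As the tissue was measured in bulk, fewer cells of a type and less RNA per cell cannot be told apart.

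The members with the largest falls were neighbours. Zfp976, Zfp977 and Zfp975 lie side by side on the minus strand, next to Zfp141, and all of them hold a match to a KRAB box and 10 to 18 finger matches in their coding sequence. Their promoters are shown because the 3 genes moved together: each run is the RefSeq sequence on GRCm38.p6 from 250 bases before to 50 bases after the annotated gene start, written 5′ to 3′ on the gene's strand. Capitals mark a run of 21 bases that all 3 promoters hold. Another shared run of that length, nearer the gene start, is left in small letters.
Zfp977 (chr7:42592496-42592795, minus strand): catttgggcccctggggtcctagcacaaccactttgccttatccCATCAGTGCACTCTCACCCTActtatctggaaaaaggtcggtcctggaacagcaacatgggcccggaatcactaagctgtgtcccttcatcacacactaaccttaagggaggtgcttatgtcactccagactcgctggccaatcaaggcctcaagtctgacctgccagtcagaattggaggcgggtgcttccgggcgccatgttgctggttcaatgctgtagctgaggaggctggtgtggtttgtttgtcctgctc
Zfp976 (chr7:42642555-42642854, minus strand): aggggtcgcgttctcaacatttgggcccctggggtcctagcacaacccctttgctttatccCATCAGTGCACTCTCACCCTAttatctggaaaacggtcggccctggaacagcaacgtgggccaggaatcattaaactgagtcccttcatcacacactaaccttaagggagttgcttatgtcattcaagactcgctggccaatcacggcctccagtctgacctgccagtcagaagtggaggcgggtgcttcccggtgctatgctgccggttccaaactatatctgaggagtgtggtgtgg
Zfp975 (chr7:42692669-42692968, minus strand): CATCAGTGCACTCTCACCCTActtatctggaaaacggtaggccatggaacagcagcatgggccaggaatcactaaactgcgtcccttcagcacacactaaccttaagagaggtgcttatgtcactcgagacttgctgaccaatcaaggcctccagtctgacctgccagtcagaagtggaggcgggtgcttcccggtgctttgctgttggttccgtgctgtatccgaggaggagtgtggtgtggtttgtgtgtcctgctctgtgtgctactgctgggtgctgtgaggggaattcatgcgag
Over their aligned parts these promoters were 90.5% identical between Zfp977 and Zfp976, 90.8% between Zfp976 and Zfp975 and 89.5% between Zfp977 and Zfp975. The run in capitals begins 206 bases before the start of Zfp977, 189 before that of Zfp976 and 250 before that of Zfp975, which places the annotated starts at different points of a shared sequence.

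Zfp976 (ENSMUSG00000074158.9, chr7:42609526-42642588) was at 3.14, 2.46 and 2.18 CPM in DKO, against 8.37, 8.94 and 5.76 CPM in Smarca1 KO cortex and 7.32, 8.22 and 7.03 CPM in WT. Every DKO library lay below every library of the other groups, and the log2 fold change was −1.57 (SE 0.195, adjusted p = 0.00341) against Smarca1 KO and −1.54 (SE 0.195, adjusted p = 0.00283) against WT. Zfp975 (ENSMUSG00000069727.5, chr7:42660105-42692742) was at 2.84, 3.14 and 2.55 CPM in DKO, against 6.03, 6.82 and 5.17 CPM in Smarca1 KO cortex and 5.38, 6.10 and 5.52 CPM in WT. The groups again did not overlap, with log2 fold changes of −1.08 (SE 0.144, adjusted p = 0.0048) against Smarca1 KO and −0.998 (SE 0.144, adjusted p = 0.00468) against WT. Zfp977 (ENSMUSG00000092335.1, chr7:42579783-42592547) was scarce, at 0.468, 0.389 and 0.283 CPM in DKO, against 0.884, 0.716 and 0.947 CPM in Smarca1 KO cortex and 0.948, 1.04 and 0.948 CPM in WT. All DKO values were lower, by log2 fold changes of −1.17 (SE 0.265, adjusted p = 0.0407) against Smarca1 KO and −1.37 (SE 0.262, adjusted p = 0.0137) against WT. The Zfp977 call against Smarca1 KO was lost without any 1 of the 9 libraries, controls included (adjusted p = 0.0525 to 0.147), and the call against WT was lost without DKO replicate 3 or any WT library (adjusted p = 0.0501 to 0.0602).

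Reads of these 3 genes are hard to assign. Of their 31-base words, 34.8% in Zfp976, 39.8% in Zfp975 and 27.8% in Zfp977 also occur in other genes, most of them in one another, in Zfp936 or in the predicted gene Gm2381, so the single values are uncertain. With the counts of Zfp975 and Zfp976 added up, the pair was at 5.96, 5.60 and 4.71 CPM in DKO, against 14.4, 15.8 and 10.9 CPM in Smarca1 KO cortex and 12.7, 14.4 and 12.6 CPM in WT. The summed pair fell by 1.34 on the log2 scale against Smarca1 KO (adjusted p = 0.00216) and by 1.29 against WT (adjusted p = 0.00196). With all 5 of these genes added up, a grouping chosen after the data were seen, the falls were 1.32 (adjusted p = 0.00144) and 1.27 (adjusted p = 0.0015) on the log2 scale.

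Zfp141 (ENSMUSG00000092416.2, chr7:42473386-42505740) had the smallest p of the members in both comparisons. It was at 14.3, 14.96 and 14.9 CPM in DKO, against 25.9, 27.9 and 26.9 CPM in Smarca1 KO cortex and 24.5, 25.3 and 22.9 CPM in WT. The 3 DKO libraries lay close together and far below the rest, with log2 fold changes of −0.87 (SE 0.062, adjusted p = 0.000147) against Smarca1 KO and −0.72 (SE 0.062, adjusted p = 0.000501) against WT. Of its 31-base words, 25.1% occur in other genes, chiefly in 2610021A01Rik, and the antisense gene Gm19246 overlaps it. With 2610021A01Rik added, the pair fell by 0.65 on the log2 scale against Smarca1 KO (adjusted p = 0.000199) and by 0.53 against WT (adjusted p = 0.000736).

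The promoter of Zfp141 holds an NRF1-type motif, as do promoters of some members that were not called. NRF1 is a transcription factor of many housekeeping promoters, and its palindromic motif, whose letters stand in capitals below, was found in 6 of the 80 member promoters in the RefSeq table (7.5%), where 0.977% of all 27025 promoters hold it. The 3 from the Zfp141 cluster are shown with the match in capitals, on the same windows as above.
Zfp141 (chr7:42505704-42506003, minus strand): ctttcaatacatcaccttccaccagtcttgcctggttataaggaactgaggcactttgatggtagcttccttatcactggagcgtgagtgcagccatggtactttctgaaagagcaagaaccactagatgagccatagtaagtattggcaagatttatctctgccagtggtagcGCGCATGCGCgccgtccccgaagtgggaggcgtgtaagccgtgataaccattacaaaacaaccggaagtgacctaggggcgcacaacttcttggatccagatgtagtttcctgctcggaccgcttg
Zfp658 (chr7:43562120-43562419, plus strand): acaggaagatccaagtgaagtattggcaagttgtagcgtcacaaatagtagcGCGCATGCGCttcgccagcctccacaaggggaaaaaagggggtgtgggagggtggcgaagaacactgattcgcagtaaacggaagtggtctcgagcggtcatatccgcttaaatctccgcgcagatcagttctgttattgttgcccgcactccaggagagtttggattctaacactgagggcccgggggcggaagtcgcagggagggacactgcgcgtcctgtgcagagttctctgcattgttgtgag
Zfp719 (chr7:43579336-43579635, plus strand): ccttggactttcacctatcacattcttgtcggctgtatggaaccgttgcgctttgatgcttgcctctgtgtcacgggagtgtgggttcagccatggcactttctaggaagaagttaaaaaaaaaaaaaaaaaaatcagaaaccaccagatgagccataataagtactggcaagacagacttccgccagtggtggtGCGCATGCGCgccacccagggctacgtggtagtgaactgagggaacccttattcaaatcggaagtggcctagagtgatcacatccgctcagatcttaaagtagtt
The promoters of Zfp141 and Zfp719 were 76.5% identical over 268 aligned bases, and the match lay 76 bases before the start of Zfp141 and 55 before that of Zfp719. Zfp719 was at 18.7, 18.9 and 18.3 CPM in DKO, against 17.4, 19.3 and 20.1 CPM in Smarca1 KO cortex and 18.0, 17.2 and 17.8 CPM in WT. Zfp658 was at 20.1, 22.4 and 23.3 CPM in DKO, against 20.5, 25.2 and 27.8 CPM in Smarca1 KO cortex and 24.1, 23.3 and 19.9 CPM in WT. Neither was called in any comparison, with adjusted p between 0.462 and 0.910 for Zfp719 and between 0.544 and 0.897 for Zfp658. The other 3 members with the motif were Zfp329, called as lower against WT alone, and Zfp30 and Zfp82, which were not called. A match is a run of letters and not a shown binding site, and a part of NRF1 in these values was not tested.

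The stretch around Zfp141 was looked at gene by gene, after its values were seen. It runs from AI987944 to Zfp975, which were both called, while Gm2381, the next protein-coding gene tested after Zfp975, was not. The counts of calls within it depend on that choice of ends. It spans 1319.8 kb and holds 11 protein-coding genes that were tested. Of these, 8 have at least 5 finger matches in their coding sequence. All 8 fell against Smarca1 KO and 7 fell against WT, where 2.66% and 6.35% of all genes did. The other 3, the vomeronasal receptor genes Vmn2r59 and Vmn2r60 and the predicted gene Gm20449, were not called in either comparison. The annotated span of Gm20449 overlaps that of AW146154, a called finger gene, and how reads were split between them was not tested. Gm20449 was at 0.566 to 0.680 CPM in DKO and 0.692 to 0.955 CPM in Smarca1 KO, and its log2 fold change of −0.39 (adjusted p = 0.432) was as large as that of Zfp788, a called finger gene. The finger genes of the stretch with no Zfp symbol were AI987944, AW146154 and 2610021A01Rik. Over the whole chromosome, 22 tested genes without a Zfp symbol had 5 or more finger matches. Of these 22, 4 fell and 0 rose against Smarca1 KO, and 13 had a log2 fold change below 0. Against WT, 6 fell, 1 rose and 11 were below 0. Of all genes, 2.66% and 6.35% fell in these comparisons, and 1.73% and 5.61% rose. The counts over the 22 are not separate from the stretch, since they include AI987944, AW146154 and 2610021A01Rik, which fell in both comparisons. AI987944 was at 3.44, 3.27 and 4.12 CPM in DKO, against 7.17, 7.64 and 6.67 CPM in Smarca1 KO cortex and 7.32, 7.76 and 8.14 CPM in WT, with log2 fold changes of −0.98 (adjusted p = 0.00345) against Smarca1 KO and −1.10 (adjusted p = 0.00164) against WT. AW146154 had log2 fold changes of −0.76 (adjusted p = 0.0126) and −1.06 (adjusted p = 0.00228) in these comparisons, and 2610021A01Rik of −0.46 (adjusted p = 0.00457) and −0.37 (adjusted p = 0.0079). How much sequence AI987944 and AW146154 share with other genes was not measured.

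Zfp788, a member inside this stretch with 23 finger matches and only 0.454% of its 31-base words shared, was at 35.9, 40.5 and 41.4 CPM in DKO, against 46.1, 53.0 and 52.8 CPM in Smarca1 KO cortex and 45.6, 46.1 and 45.8 CPM in WT. All DKO values were the lowest, and it fell by 0.37 on the log2 scale (SE 0.070, adjusted p = 0.0199) against Smarca1 KO, with a difference of −0.22 (adjusted p = 0.0658) against WT. The first of these calls was lost without DKO replicate 1, DKO replicate 2 or Smarca1 KO replicate 2 (adjusted p = 0.0517 to 0.0766). On the far side of Zfp975, Gm2381 had a log2 fold change of −1.09 against Smarca1 KO at 0.0648 to 0.218 CPM in DKO and 0.255 to 0.409 CPM in Smarca1 KO, and it was not called (adjusted p = 0.305). Gm2381 has 7 finger matches. The members beyond it, Zfp715, Zfp658 and Zfp719, were not called either. Between Zfp715 and Zfp658 lies Iglon5, a cell adhesion gene with no finger match, which was called as lower in both DKO comparisons. It was at 61.3, 75.1 and 67.0 CPM in DKO, against 81.9, 82.1 and 87.3 CPM in Smarca1 KO cortex and 85.5, 79.2 and 85.6 CPM in WT, with log2 fold changes of −0.31 (adjusted p = 0.0427) against Smarca1 KO and −0.30 (adjusted p = 0.0266) against WT. Zfp715 was at 24.0, 26.2 and 26.2 CPM in DKO, against 23.6, 22.7 and 26.9 CPM in Smarca1 KO cortex and 23.5, 22.3 and 22.3 CPM in WT. Of the 10 genes tested before the stretch, Zfp507 was the only 1 called in either DKO comparison, and of the 10 that follow Zfp719 and Ctu1, none was.

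**Figure D2:**
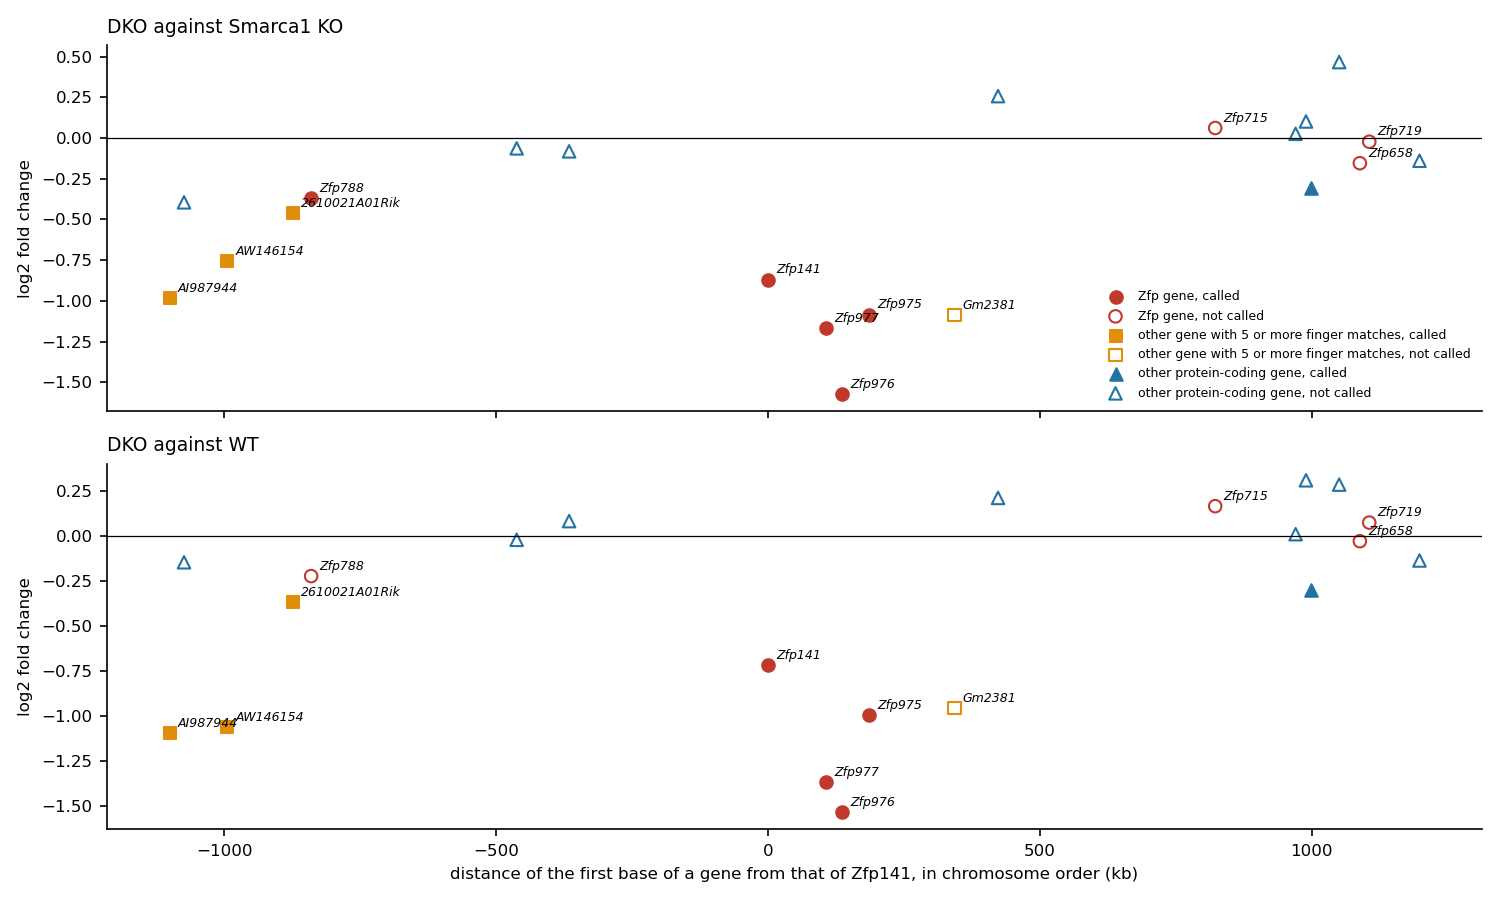
Log2 fold change of each protein-coding gene tested around Zfp141, by the distance of its first base from that of Zfp141 in kb, for DKO against Smarca1 KO and DKO against WT. Filled symbols were called. The 8 finger genes from AI987944 to Zfp975 lie between −1.57 and −0.37 in the upper panel. The 3 other genes of that stretch, none of them called, lie at −0.39 (Gm20449, which overlaps AW146154), −0.06 (Vmn2r59) and −0.08 (Vmn2r60). Iglon5, further on, is the filled triangle.

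Further members fell against both groups elsewhere on the chromosome. Zfp507 (ENSMUSG00000044452.10, chr7:35772343-35803003), which lies alone, was at 51.7, 52.6 and 46.9 CPM in DKO, against 65.5, 69.8 and 68.4 CPM in Smarca1 KO cortex and 80.4, 77.3 and 73.2 CPM in WT. The 3 groups did not overlap, with Smarca1 KO between DKO and WT, and the log2 fold change was −0.43 (SE 0.057, adjusted p = 0.00463) against Smarca1 KO and −0.61 (SE 0.057, adjusted p = 0.000705) against WT. With offsets for effective transcript length, the call against Smarca1 KO was lost (adjusted p = 0.0905). Zfp111 (ENSMUSG00000087598.9, chr7:24193947-24211443) was at 16.7, 15.2 and 15.7 CPM in DKO, against 22.8, 25.5 and 20.9 CPM in Smarca1 KO cortex and 26.4, 26.2 and 25.5 CPM in WT. Every DKO library was below the others, with log2 fold changes of −0.54 (SE 0.078, adjusted p = 0.00621) against Smarca1 KO and −0.71 (SE 0.078, adjusted p = 0.00156) against WT. Zfp507, Zfp111, Zfp141, Zfp975 and Zfp976 kept both of their calls without any 1 of the 9 libraries.

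Zfp551 (ENSMUSG00000034071.15, chr7:12415153-12422751) was at 3.19, 3.43 and 3.16 CPM in DKO, against 4.81, 5.39 and 7.03 CPM in Smarca1 KO cortex and 5.89, 5.16 and 5.43 CPM in WT. The DKO libraries were the lowest, with log2 fold changes of −0.81 (SE 0.155, adjusted p = 0.0199) against Smarca1 KO and −0.75 (SE 0.155, adjusted p = 0.0174) against WT. Its call against Smarca1 KO was lost without any 1 DKO library (adjusted p = 0.0556 to 0.0755), and that against WT without DKO replicate 3 or any WT library (adjusted p = 0.0518 to 0.0722). Zfp606, in the same cluster as Zfp551, differed by less: it was at 57.4, 57.2 and 59.7 CPM in DKO, against 65.8, 68.9 and 67.5 CPM in Smarca1 KO cortex and 67.4, 69.9 and 66.8 CPM in WT. Its groups were tight and apart, with log2 fold changes of −0.21 (adjusted p = 0.0192) against Smarca1 KO and −0.23 (adjusted p = 0.0106) against WT. The Zfp606 call against Smarca1 KO was lost without DKO replicate 1, DKO replicate 2 or Smarca1 KO replicate 2 (adjusted p = 0.0593 to 0.0839), and that against WT without WT replicate 2 (adjusted p = 0.0502).

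Zfp747 and Zfp764 share sequence with other genes. Of the 31-base words of Zfp747, 52.1% occur elsewhere, 25.9% in Zfp764 and 38.0% in 9130019O22Rik. Of those of Zfp764, 47.3% do, 29.2% in Zfp747 and 30.8% in 9130019O22Rik, so reads could be split between these genes. Zfp747 was at 5.54, 6.48 and 5.88 CPM in DKO, against 8.97, 8.19 and 8.74 CPM in Smarca1 KO cortex and 8.73, 7.28 and 7.45 CPM in WT, with log2 fold changes of −0.54 (SE 0.111, adjusted p = 0.0282) against Smarca1 KO and −0.39 (adjusted p = 0.0475) against WT. Zfp764 was at 4.43, 4.95 and 3.51 CPM in DKO, against 5.64, 5.77 and 6.16 CPM in Smarca1 KO cortex and 6.504, 7.14 and 6.34 CPM in WT. All DKO values of both genes were the lowest, and the log2 fold change of Zfp764 was −0.45 (adjusted p = 0.115) against Smarca1 KO and −0.64 (SE 0.139, adjusted p = 0.0209) against WT. The Zfp747 call against Smarca1 KO was lost without any 1 DKO library, Smarca1 KO replicate 1 or 2, or WT replicate 3 (adjusted p = 0.0529 to 0.0943), and that against WT without any 1 DKO or WT library or Smarca1 KO replicate 1 (adjusted p = 0.0563 to 0.164). The Zfp764 call was lost without DKO replicate 3 or any 1 WT library (adjusted p = 0.0624 to 0.0839). Added up with 9130019O22Rik, with which both share sequence, they fell by 0.48 on the log2 scale against Smarca1 KO (adjusted p = 0.0094) and by 0.54 against WT (adjusted p = 0.0038).

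**Figure D3:**
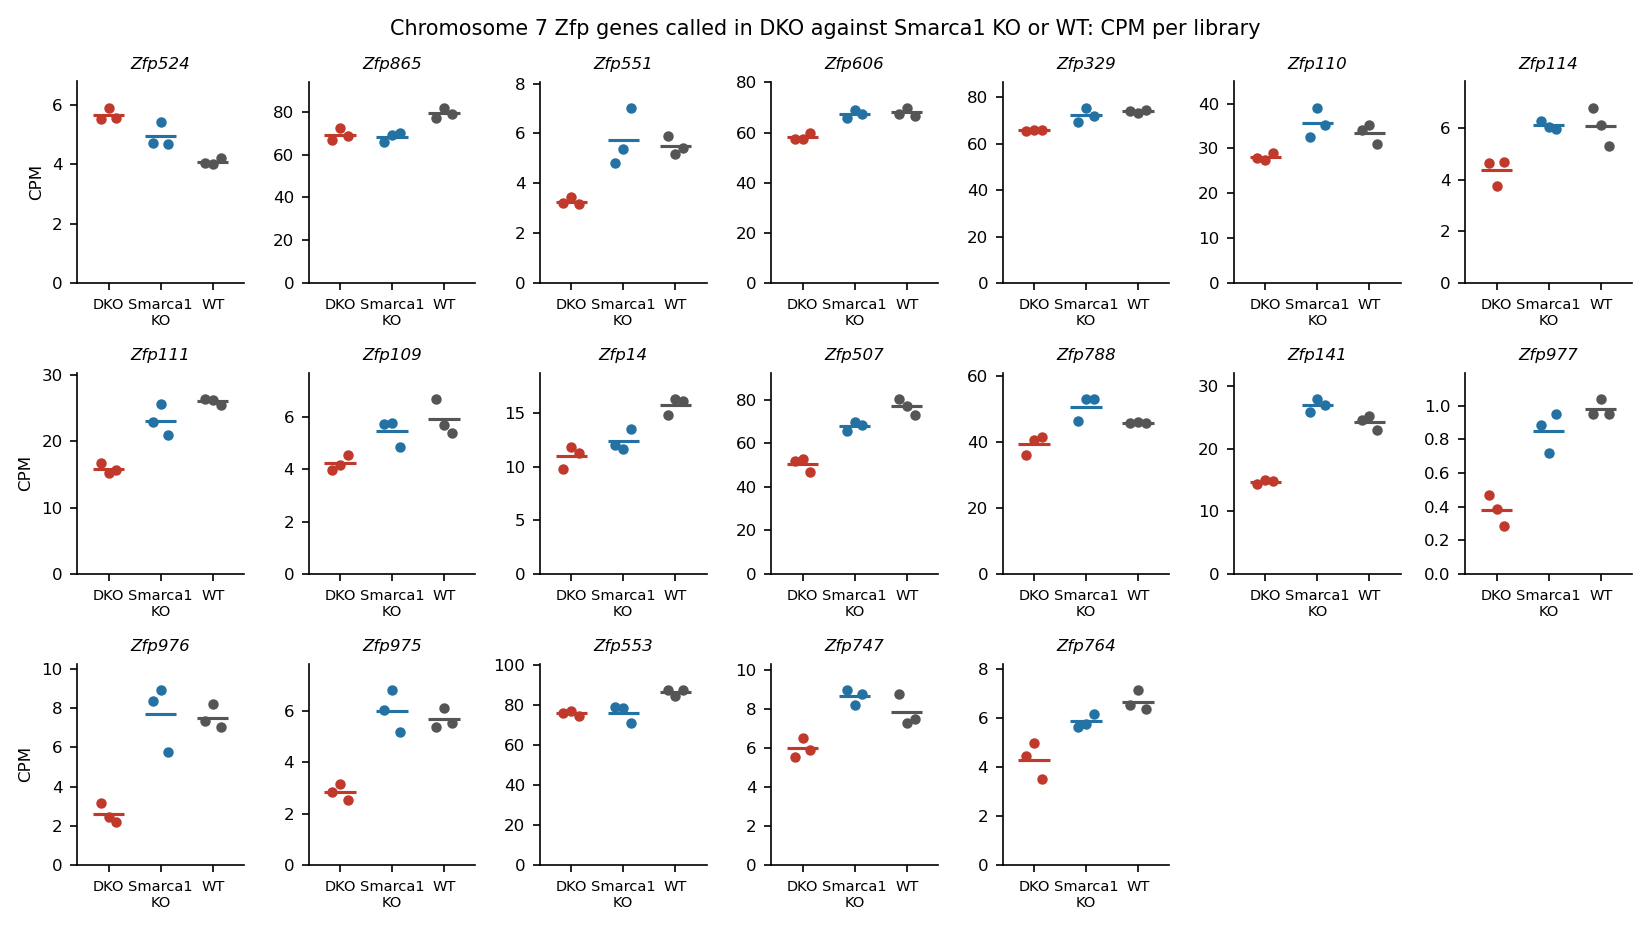
CPM of each member called in DKO against Smarca1 KO or WT, 1 point per library with the group mean as a line, in DKO, Smarca1 KO and WT, every axis starting at 0. The points of Zfp141 lie at 14.3 to 14.96 CPM in DKO, below 25.9 to 27.9 CPM in Smarca1 KO cortex and 22.9 to 25.3 CPM in WT. Zfp524 is the 1 member whose DKO points lie highest with a call.

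Several members were called against 1 of the groups only, which does not show that the comparisons differ, since that difference was not tested. Zfp110, whose product (NRIF) binds the neurotrophin receptor p75NTR, was at 27.9, 27.4 and 28.9 CPM in DKO, against 32.5, 39.1 and 35.2 CPM in Smarca1 KO cortex and 34.0, 35.2 and 30.9 CPM in WT. DKO lay below both groups without overlap, by log2 fold changes of −0.34 (SE 0.076, adjusted p = 0.0374) against Smarca1 KO and −0.25 (adjusted p = 0.0596) against WT. The Zfp110 call was lost without any 1 DKO library, Smarca1 KO replicate 2 or 3, or WT replicate 1 or 2 (adjusted p = 0.0535 to 0.124). Zfp14 was at 9.80, 11.9 and 11.2 CPM in DKO, against 12.1, 11.7 and 13.6 CPM in Smarca1 KO cortex and 14.8, 16.3 and 16.1 CPM in WT. DKO overlapped Smarca1 KO but not WT, and the log2 fold change was −0.18 (adjusted p = 0.373) against Smarca1 KO and −0.52 (SE 0.097, adjusted p = 0.0125) against WT. The call of Zfp14 was lost without WT replicate 2 or 3 (adjusted p = 0.0533 to 0.0543).

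Zfp109 and Zfp114, which flank Zfp111 in its cluster, were low in all groups. Zfp109 was at 3.97, 4.18 and 4.55 CPM in DKO, against 5.72, 5.77 and 4.85 CPM in Smarca1 KO cortex and 6.68, 5.68 and 5.36 CPM in WT, and it fell by 0.48 on the log2 scale (SE 0.132, adjusted p = 0.0441) against WT. Zfp114 was at 4.65, 3.76 and 4.68 CPM in DKO, against 6.29, 6.04 and 5.97 CPM in Smarca1 KO cortex and 6.79, 6.14 and 5.29 CPM in WT, and it fell by 0.47 on the log2 scale (adjusted p = 0.0485) against WT, with 34.1% of its 31-base words shared, most with Gm15442. For both genes all DKO values were the lowest. The call of Zfp109 was lost without any 1 DKO or WT library or Smarca1 KO replicate 1 (adjusted p = 0.0519 to 0.158), and that of Zfp114 without any 1 library other than Smarca1 KO replicate 3 (adjusted p = 0.0525 to 0.165).

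Zfp865, Zfp553 and Zfp329 fell by 0.20, 0.19 and 0.17 on the log2 scale in DKO against WT (adjusted p = 0.0266, 0.0324 and 0.0269). Zfp865 overlaps Zfp784 on the opposite strand and Zfp553 overlaps Sept1, so with the strand setting of the counting unknown these values are uncertain. Zfp865 was at 66.6, 72.4 and 68.5 CPM in DKO and at 66.1, 69.3 and 69.9 CPM in Smarca1 KO, against 77.0, 81.8 and 78.9 CPM in WT, so both mutant groups lay below WT. With effective-length offsets its log2 fold change was −0.70 (adjusted p = 0.135), and that of Zfp329 was −0.27 (adjusted p = 0.147). The calls were lost without DKO replicate 1 or 3 or any 1 WT library for Zfp865 (adjusted p = 0.0579 to 0.104), without any 1 DKO or WT library for Zfp553 (adjusted p = 0.0563 to 0.118) and without DKO replicate 2 or 3 or any 1 WT library for Zfp329 (adjusted p = 0.0820 to 0.0896).

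Zfp524 (ENSMUSG00000051184.7, chr7:5014415-5018488) was the 1 member that edgeR's test called as higher in the main fit. It was at 5.51, 5.89 and 5.55 CPM in DKO, against 4.70, 5.42 and 4.66 CPM in Smarca1 KO cortex and 4.05, 3.99 and 4.22 CPM in WT. The 3 groups did not overlap, and the log2 fold change was 0.20 (adjusted p = 0.400) against Smarca1 KO and 0.47 (SE 0.113, adjusted p = 0.029) against WT. Of its 31-base words, 45.8% occur in the predicted gene Gm44973, which overlaps it, as does Fiz1 on the opposite strand. With Gm44973 added, the rise was 0.46 on the log2 scale (adjusted p = 0.0313). The call was lost without DKO replicate 2 or 3 or any 1 WT library (adjusted p = 0.0847 to 0.106).

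Set beside the genes around them, the members had a median log2 fold change of −0.07 in DKO against Smarca1 KO, where the median of all genes was 0.00. The 251 tested Zfp genes on other chromosomes had a median of −0.09, with 2 called as higher and 37 as lower (15.5%). The 1109 other protein-coding genes of chromosome 7 had a median of 0.01, with 20 called as higher and 24 as lower (3.97%). Against WT, the medians were −0.04 for the members, −0.10 for the other Zfp genes, 0.03 for the other chromosome 7 genes and 0.01 for all genes. There, 4 of the other Zfp genes were called as higher and 48 as lower (20.7%), and 65 and 54 of the other chromosome 7 genes (10.7%). No difference between these classes was tested. Libraries of the members did not overlap, with DKO below, in 21 members against Smarca1 KO and in 26 against WT, where 10.7% and 20.4% of all genes lay so. They lay with DKO above in 5 and 8 members, where 9.72% and 20.9% of all genes did. Summed over the 88 members, CPM was 2453 ± 36.7 in DKO, 2575 ± 51.8 in Smarca1 KO and 2592 ± 18.9 in WT (SD, n = 3 each), and no DKO library reached the lowest of the other groups.

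**Figure D4:**
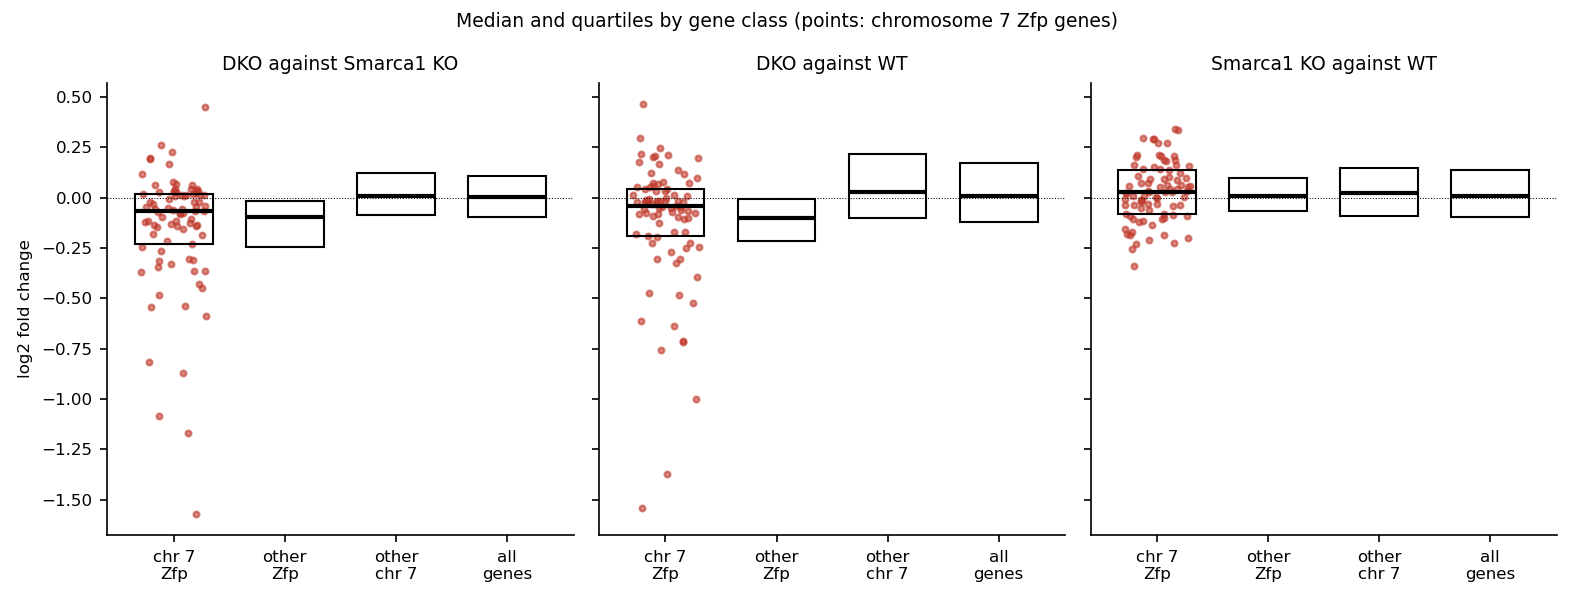
Log2 fold changes in the 3 comparisons for the chromosome 7 Zfp genes, Zfp genes on other chromosomes, other protein-coding genes of chromosome 7 and all genes tested. Boxes span the quartiles with the median as a thick line, and points are the 85 members. In DKO against Smarca1 KO the medians are −0.07, −0.09, 0.01 and 0.00.

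Between Smarca1 KO and WT, the median size of the members' log2 fold change, with the sign left out, was 0.098. It was 0.095 in DKO against WT, and 0.112 over all genes in Smarca1 KO against WT. No member was called in edgeR's test, where 0.336% of all genes were called, 0.139% as higher and 0.197% as lower. At an unadjusted p under 0.05 there were 19 of the 85, where 2978 of all 15773 genes were, and DESeq2 called 7, where it called 701 of all genes. Of these 7, Zfp865, Zfp14, Zfp536, Zfp710 and Zfp553 were lower and Zfp128 and Zfp60 were higher. Zfp710 was at 57.5, 62.5 and 59.6 CPM in Smarca1 KO, against 71.5, 71.7 and 70.9 CPM in WT, a log2 fold change of −0.25 with an adjusted p of 0.0992 in edgeR and 0.00843 in DESeq2. Zfp536, which in cultured cells restrains neuronal differentiation, was at 52.4, 48.0 and 51.4 CPM in Smarca1 KO, against 60.3, 59.1 and 58.6 CPM in WT, a log2 fold change of −0.23 with an adjusted p of 0.14 in edgeR and 0.0400 in DESeq2. For both genes the Smarca1 KO libraries were the lowest of the 9, and the DKO values were 63.3, 73.5 and 68.2 CPM for Zfp710 and 57.7, 65.1 and 55.3 CPM for Zfp536. Libraries of Smarca1 KO lay above WT without overlap in 14 members and below it in 13, where 12.5% and 13.6% of all genes did.

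Along the chromosome the members formed 21 groups when neighbours at most 500 kb apart were joined, of which 12 were single genes and 8 held 5 or more. Called members were spread over several of them. Of all genes tested, 2.66% fell against Smarca1 KO and 6.35% against WT, and 5.61% rose against WT. In the cluster of 14 around Zfp111, 1 fell against Smarca1 KO and 3 against WT. In the cluster of 15 from Zfp84 to Zfp146, which includes Zfp568, the KRAB repressor of a placental Igf2 transcript, none fell against Smarca1 KO and 1, Zfp14, fell against WT. The 5 genes from Zfp60 to Zfp850 lay between −0.14 and −0.08 in log2 fold change against Smarca1 KO, with none called. The 4 from Zfp954 to Zfp772 lay between −0.33 and −0.10, with none called. Among the 7 of the Zfp551 cluster, 3 fell in each comparison, and among the 6 other protein-coding genes tested within its span none was called. Of the 10 members from Zfp553 to Zfp646, 1 fell against Smarca1 KO and 3 against WT, and of the 25 other genes tested within that span none was called against Smarca1 KO, while 1 rose and 2 fell against WT. In the cluster from Zfp141 to Zfp819, 4 of the 7 tested members fell in each comparison, and of the 6 other protein-coding genes tested within its span 1, Iglon5, fell in each.

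**Figure D5:**
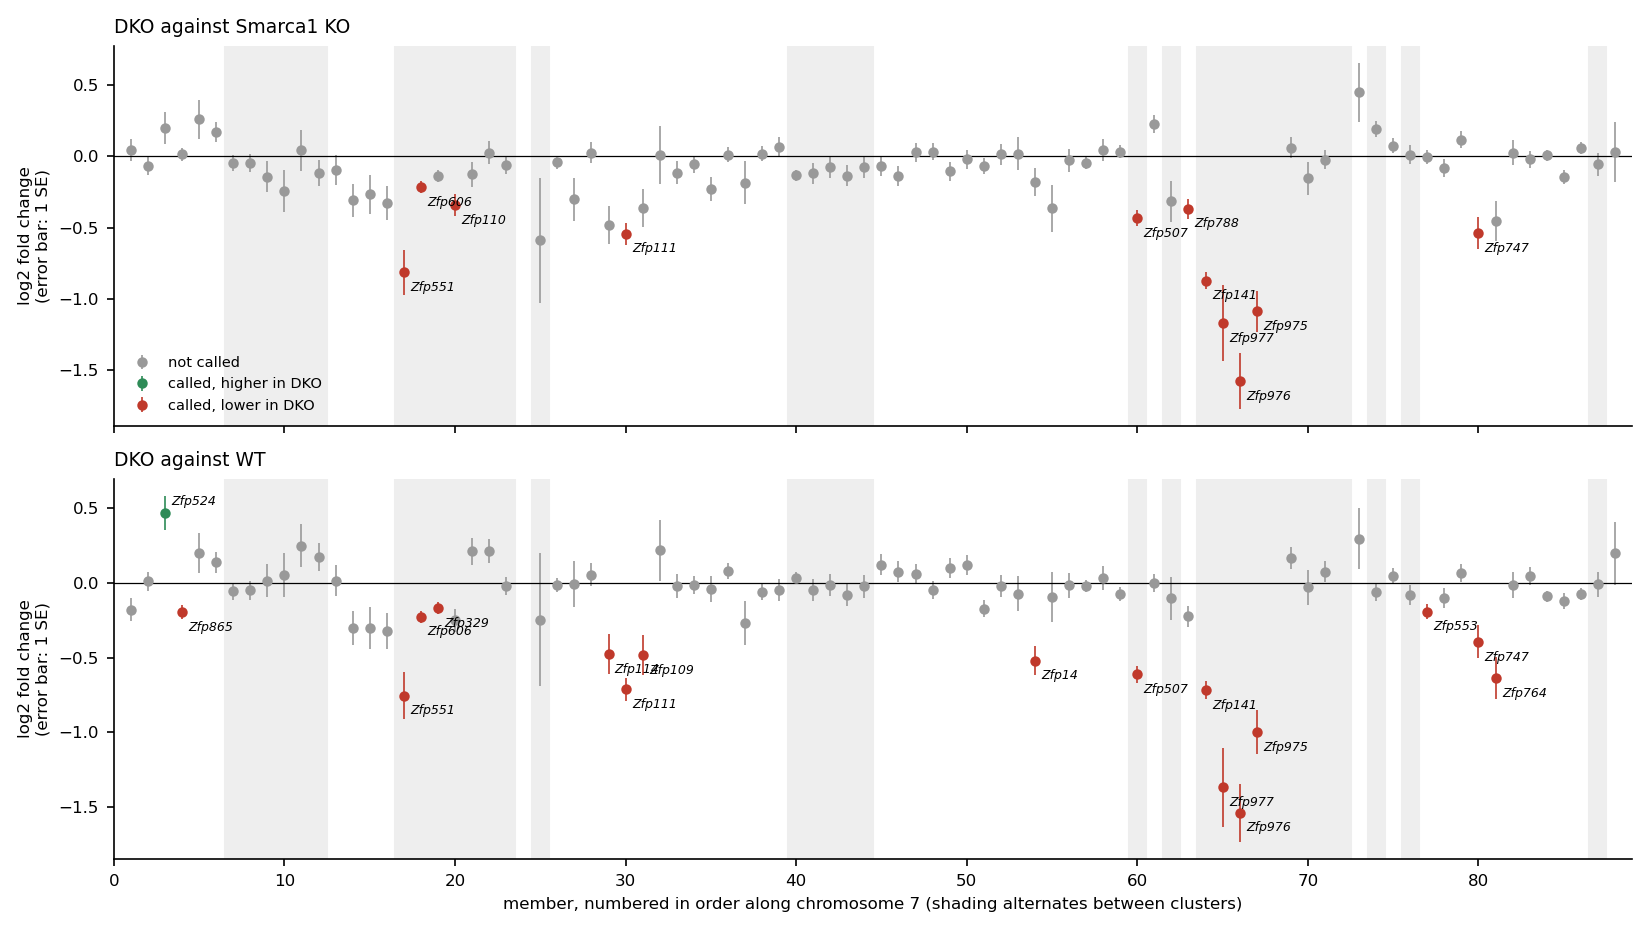
Log2 fold change (bars 1 SE) of the 85 tested members, numbered in order along chromosome 7, for DKO against Smarca1 KO and DKO against WT, with shading that alternates between clusters. The 3 lowest points in both panels are the neighbours Zfp976, Zfp977 and Zfp975, at −1.57 to −1.08 against Smarca1 KO and −1.54 to −0.998 against WT. Next come Zfp141 at −0.87 and Zfp551 at −0.81 against Smarca1 KO, and Zfp551 at −0.75 and Zfp141 at −0.72 against WT.

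Some members with a known role, picked for that role, were not called in any comparison. Zfp143, an activator of small nuclear RNA and many other promoters, was at 34.0, 30.7 and 34.5 CPM in DKO, against 31.4, 35.4 and 31.5 CPM in Smarca1 KO cortex and 36.4, 33.9 and 34.5 CPM in WT. Zfp568 was at 27.0, 22.1 and 20.4 CPM in DKO, against 25.6, 23.2 and 19.6 CPM in Smarca1 KO cortex and 24.1, 24.2 and 24.7 CPM in WT. Zfp260, a cofactor of GATA4 in heart cells, was at 103.1 to 109.6 CPM in DKO, 106.6 to 112.3 CPM in Smarca1 KO cortex and 105.2 to 109.9 CPM in WT. The groups overlapped for all 3 genes. Zfp473, whose human counterpart takes part in the processing of histone transcripts, was at 3.08, 2.27 and 2.53 CPM in DKO, against 1.48, 2.32 and 2.004 CPM in Smarca1 KO cortex and 2.13, 1.94 and 2.35 CPM in WT, with the largest positive log2 fold change of any tested member against Smarca1 KO, 0.45 (adjusted p = 0.288).

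In their coding sequence, translated from GENCODE, the members held between 1 and 33 finger matches with a median of 11. The pattern used, cysteines spaced as in a classical finger, misses fingers with wider spacing. A pattern of conserved residues of the KRAB A box was found in 44 of the 88, and no match does not show that the domain is missing. Of the 42 tested members with it, 9 fell against Smarca1 KO and 9 against WT, and of the 43 without it, 2 and 7 fell, and 1 rose against WT. A looser pattern, which allows further residues in its last place, was found in 51 of the 88, among them Zfp111, Zfp109 and Zfp114. Of the 49 tested members with the looser pattern, 10 fell against Smarca1 KO and 12 against WT. Of the 36 without it, 1 and 4 fell, and 1 rose against WT. For neither pattern was the difference between members with and without it tested. Of all genes tested, 2.66% fell against Smarca1 KO and 6.35% against WT, and 5.61% rose against WT. Members with the first pattern averaged lower levels, with a median of 10.8 TPM against 25.1 TPM without it. Members with over 20% of their 31-base words in other genes, 16 of the 88, include 15 that were tested, and of these 5 fell against Smarca1 KO and 7 against WT, where 1 rose. Of the 70 other tested members, 6 and 9 fell. An antisense gene overlaps 13 of the 88.

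Promoters in the RefSeq table were found for 80 members. The motif GGGCGG (GC box), searched on both strands like the others, was found in 36.2% of them and in 35.9% of all 27025 promoters. The motif of YY1 was found in 1.25% and 0.699%, and that of CTCF in none and 2.41%. The motifs other than NRF1's are not palindromes. The median number of CpG dinucleotides per promoter was 14 in members and 7 in all promoters, at a median GC content of 54.7% and 52.7%.

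The corepressor and heterochromatin genes with which KRAB zinc finger proteins work were described from a list of 24, all of them tested. Against Smarca1 KO none was called in DKO by edgeR's test, 4 had an unadjusted p under 0.05, where 2905 of all 15773 genes did, and the smallest p belonged to Chd4, the NuRD remodeller, at −0.12 on the log2 scale (adjusted p = 0.0979). Against WT, 6 of the 24 fell and none rose, where 6.35% of all genes were called as lower. Chd4 was at 676, 661 and 669 CPM in DKO, against 748, 728 and 705 CPM in Smarca1 KO cortex and 837, 833 and 809 CPM in WT, a log2 fold change of −0.31 (adjusted p = 0.00211) against WT. Trim28, the corepressor itself, was at 583, 591 and 594 CPM in DKO, against 607, 616 and 554 CPM in Smarca1 KO cortex and 678, 685 and 713 CPM in WT, a log2 fold change of −0.23 (adjusted p = 0.0149) against WT. Setdb1 fell by 0.14, its partner Atf7ip by 0.20, the DNA methyltransferase Dnmt3a by 0.19 and the remodeller Smarcad1 by 0.15 on the log2 scale (adjusted p = 0.0251 to 0.0377). For Trim28, Chd4, Setdb1 and Dnmt3a every Smarca1 KO library also lay below every WT library, and for Atf7ip and Smarcad1 these groups overlapped. In Smarca1 KO against WT none of the 24 was called by edgeR, 8 had an unadjusted p under 0.05, where 2978 of all genes did, and the smallest p was that of Chd4, at −0.19 on the log2 scale (adjusted p = 0.0746). The median log2 fold change of the 24 was −0.04 in DKO against Smarca1 KO, −0.11 in DKO against WT and −0.05 in Smarca1 KO against WT. The comparisons share libraries and are not independent of each other.

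Several counts rest on single libraries. Leaving out DKO replicate 1, 2 or 3 or Smarca1 KO replicate 2 brought the 11 calls against Smarca1 KO to 6, 5, 7 and 6. Over all genes the 692 calls went to 444, 286, 288 and 354. Without DKO replicate 1, 5 of the 6 members were lower and 1, not called in the main fit, was higher. Leaving out DKO replicate 2 or 3 or WT replicate 1, 2 or 3 brought the 17 calls against WT to 11, 7, 7, 5 and 6. Over all genes the 1887 calls went to 715, 543, 450, 541 and 521. With effective-length offsets the calls of Zfp606, Zfp110 and Zfp977 against Smarca1 KO (adjusted p = 0.0746, 0.0936 and 0.0749) and those of Zfp524, Zfp109 and Zfp553 against WT (adjusted p = 0.0566, 0.0728 and 0.0562) were lost as well.

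Limits of several kinds touch every call in the DKO. Y-linked RNA was lowest in DKO, and with its level as a covariate no member was called against Smarca1 KO or WT. Over all genes the covariate brought the calls from 692 to 11 against Smarca1 KO and from 1887 to 6 against WT. The group explains 0.771 of the variance (R2) of that covariate, so the 2 cannot be told apart. Without DKO replicate 1 and Smarca1 KO replicate 1, the libraries highest in meninges markers, 7 members were called against Smarca1 KO and 18 against WT. Over all genes, 398 and 2797 were called in that setting, where the main fit called 692 and 1887. For the meninges markers the DKO and Smarca1 KO libraries left were at 230 to 259 CPM, and WT was at 409 to 497 CPM. The calls against WT in that setting thus come with a difference in meninges markers between the groups. Leaving out these libraries was chosen after the data were seen, and the part of those markers in the results was not tested. In every DKO library microglia markers, at 33.8 to 41.1 CPM, lay above those of all other libraries, at 26.3 to 32.2 CPM. Cortex markers were lower, and ventral interneuron markers higher, in every DKO library than in any WT library. The part of these differences in the calls was not tested either.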

How the data were processed

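RNA was measured in 9 stranded mRNA libraries of E13.5 mouse cortex. Salmon 1.4.0 quantified the transcripts on mm10, per the submitters' processing notes. These notes name DESeq2 too, without its role. The tables deposited by the authors, 1 for each library, give estimated counts, TPM, length and effective length per transcript, per the file headers. Neither the transcript index nor the strand setting is given in the sources used here. Of 116546 transcripts, 115977 matched GENCODE M21 (GRCm38) by identifier without version. The other 569 held 0.104% to 0.116% of a library's reads and were left out. Counts were summed to 35498 genes and rounded, and deposited TPM were summed.

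All 9 libraries entered 1 fit in edgeR 4.0.16 (limma 3.58.1, R 4.3.3): TMM scaling (factors 0.991 to 1.02), filterByExpr (15773 genes), group means, quasi-likelihood F tests with 6 residual degrees of freedom by design, and Benjamini-Hochberg adjustment over all genes. The standard error was the size of the log2 fold change over the square root of F, and the common biological coefficient of variation was 10.2%. Within groups, libraries differed by more than counting noise (chi-square per degree of freedom at least 3.57). On simulated counts for DKO against Smarca1 KO (15637 genes), 85.9% of genes changed by a log2 fold of 1 and 98.0% by a log2 fold of 2 were called, and 0.0583% of unchanged genes.

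The members and lists were chosen with earlier results of these data known. Any member could be named, and per comparison full statistics (with the standard error) go to at most the 10 largest called rises and 10 largest called falls, with Smarca5 and Smarca1 always named. A gene counted as sharing sequence by the share of its 31-base words found in other genes, with 20% as the limit. Alternatives were DESeq2 (1.42.0) size factors and Wald test, no filter, 2 groups only, a replicate block, effective-length offsets, merged genes, a Y-linked covariate and leaving out each library. Marker lists were of cortex, ventral interneurons, meninges and mesenchyme, blood, endothelium and microglia.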

Additional observations from a re-analysis of the deposited data

How the results depend on the processing

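The number of members called was 11 in DKO against Smarca1 KO, 17 in DKO against WT and 0 in Smarca1 KO against WT. Leaving out 1 library at a time gave 5 to 9, 5 to 18 and 0 to 0 calls. Against Smarca1 KO the count was 5 with only the 2 groups fitted, 7 with effective-length offsets, 0 with the Y-linked covariate and 7 without both libraries highest in meninges markers. Over all genes these settings called 181, 389, 11 and 398, where the main fit called 692. Against WT the count of members was 0 with the Y-linked covariate, where 6 of all genes were called and 1887 in the main fit. In Smarca1 KO against WT it was 7 with DESeq2's Wald test and 1 without both libraries highest in meninges markers. There, 701 and 607 of all genes were called, and 53 in the main fit. The cause was not tested. Fewer samples entered the fits of 2 groups and those that left libraries out. The replicate block gave 8, 15 and 0 calls. Same-numbered libraries had correlations of deviations from −0.063 to 0.350, with 2 of 9 pairs over 0.1, and the main fit did not pair libraries by number. Sums of meninges, blood and endothelium markers were, however, highest in replicate 1 of both DKO and Smarca1 KO, but not of WT. Whether same-numbered DKO and Smarca1 KO libraries share a source was not tested. The other settings (DESeq2 size factors, no filter and merged genes) left the counts within 1.5 times. None of the 28 called results reversed under any setting, and each of them lost its call under at least 1, the Y-linked covariate. Of the 28, 9 lost it with effective-length offsets, 6 with 2 groups only, 6 with the replicate block and 5 with no filter. Merging genes that share over 10% of their 31-base words and leaving out both libraries highest in meninges markers were chosen after the data were seen. Depth limits the members under 1 CPM, of which Zfp977 alone was called.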
